A study of Mus musculus with 4 samples.

Results

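The insulin-like growth factor (IGF) system was followed through 10 of the 55472 entries of the gene table. They were the ligands Igf1 and Igf2, the receptors Igf1r and Igf2r, and the binding proteins Igfbp2, Igfbp3, Igfbp4, Igfbp5, Igfbp6 and Igfbp7. The genes were taken by symbol and not by a threshold on a measured value, but the list was chosen with earlier results of these data known. Of the 10, 9 had at least 1 UMI (unique molecular identifier, a tag that counts each captured RNA molecule once). Single-cell RNA sequencing of mammary tumours gave 4 libraries from 3 mice, and the design addressed the heterogeneity of metastatic breast cancer. All mice were FVB females of 13 to 14 weeks that carried MMTV-PyMT, K14Cre and Rosa-tdTomato, and no library came from a normal gland. The MMTV promoter drives the polyoma middle T oncogene in the mammary epithelium, the K14 promoter drives the Cre recombinase, and Rosa-tdTomato is a fluorescent reporter that Cre switches on. Tumour 1 came from multiple glands of mouse 1, tumour 2 from an inguinal gland of mouse 2, while mouse 3 gave tumour 3, from a thoracic gland, and tumour 4, from an inguinal one.

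IGF1 and IGF2 are secreted growth factors that signal through IGF1R, a receptor tyrosine kinase that feeds the PI3K and AKT pathway. IGF2R takes up IGF2 and carries it to lysosomes without signalling as a kinase. The binding proteins hold the ligands outside the cell, and they can block or prolong ligand action. In the mammary gland, IGF1 of the stroma supports duct growth, and IGFBP5 is known for its rise during involution after weaning.

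Cells were placed in gates by UMIs of marker genes. The luminal gate needed 3 or more UMIs of Krt8 and Krt18, the basal gate 3 of Krt5 and Krt14, the fibroblast gate 10 of Col1a1 and Col3a1, the mural gate 3 of Rgs5, the endothelial gate 2 of Cdh5 and Pecam1, and the macrophage gate 5 of C1qa and C1qb. The 5 other gates were read before the luminal gate, and 171 cells past several of them were set aside. The 4 tumours held 3650 to 7858 luminal, 96 to 430 basal, 185 to 646 fibroblast, 40 to 85 mural, 75 to 245 endothelial and 506 to 987 macrophage cells each. Libraries held 20281799 to 39370565 UMIs, and pairs of libraries shared 96 to 129 cell barcodes, of which 0 or 1 per pair fell in the same non-luminal gate. Markers not used by the gates were read as CPM (counts per 1000000 UMIs of the gate). The 5 fibroblast markers summed to 3898 to 4200 CPM in fibroblasts and the 5 macrophage markers to 4153 to 5073 CPM in macrophages. As a sum, the 5 basal markers did not set their gate apart. They summed to 561 to 1128 CPM in basal, 314 to 700 CPM in fibroblast and 999 to 2300 CPM in mural cells. Acta2, 1 of these 5, stood at 249, 415 and 1630 CPM in the 3 gates. The others were each highest in basal cells. In the same order of gates, Krt17 stood at 490, 4.87 and 2.96 CPM and Trp63 at 39.7, 1.99 and 4.43 CPM. Cnn1 stood at 33.0, 2.44 and 7.39 CPM and Oxtr at 12.3, 0.443 and 1.48 CPM. Markers of other cell types were also present. Basal cells carried the 5 luminal markers at 979 to 2395 CPM, beside 1432 to 1544 CPM in luminal cells, and 30.2% to 89.1% of them also passed the luminal threshold. Neutrophil markers reached 3025 CPM in mural and 1482 CPM in endothelial cells of single tumours, and erythroid markers reached 871 CPM in basal cells. Luminal markers were read in every other gate too, at 348 to 532 CPM in macrophages. The luminal threshold was also passed by 34.2% of mural, 20.5% of endothelial, 13.4% of macrophage and 10.6% of fibroblast cells. T cells outside the 6 gates, 289 in all, are given as a reference beside shares of cells, but not for the receptors. They had Igf2r at 19.2 ± 10.0 CPM and Igf1r at 7.75 ± 7.81 CPM (SD, n = 3 mice). They hold no cell past the luminal threshold by construction, so they are not matched to the gates in that respect, and the source of luminal RNA in other gates was not tested.

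Igf1, Igfbp4 and Igfbp6 were among the 5 members with their highest level in fibroblasts, and Igfbp3 and Igfbp7 had theirs in endothelial cells. The 250 bases upstream of the RefSeq start of these 5 genes (GRCm38.p6, gene strand, 5′ to 3′) are shown as examples of both gates. Capitals mark matches on either strand to TATAAA (the TATA box), GGGCGG (the GC box) or TGANTCA (the AP-1 motif). They lie at chr10:87860861-87861110 (plus) for Igf1, chr11:99040994-99041243 (plus) for Igfbp4, chr15:102143936-102144185 (plus) for Igfbp6, chr11:7213924-7214173 (minus) for Igfbp3 and chr5:77408046-77408295 (minus) for Igfbp7.
Igf1: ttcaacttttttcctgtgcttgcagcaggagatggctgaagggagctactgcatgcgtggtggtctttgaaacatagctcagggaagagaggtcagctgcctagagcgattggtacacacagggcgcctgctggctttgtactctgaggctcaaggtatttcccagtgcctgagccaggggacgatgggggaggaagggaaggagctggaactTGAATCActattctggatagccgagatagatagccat
Igfbp4: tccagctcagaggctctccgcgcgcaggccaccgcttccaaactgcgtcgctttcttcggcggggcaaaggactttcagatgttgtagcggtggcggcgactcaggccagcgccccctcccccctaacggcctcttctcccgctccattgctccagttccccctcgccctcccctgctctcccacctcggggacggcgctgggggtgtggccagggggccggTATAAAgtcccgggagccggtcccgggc
Igfbp6: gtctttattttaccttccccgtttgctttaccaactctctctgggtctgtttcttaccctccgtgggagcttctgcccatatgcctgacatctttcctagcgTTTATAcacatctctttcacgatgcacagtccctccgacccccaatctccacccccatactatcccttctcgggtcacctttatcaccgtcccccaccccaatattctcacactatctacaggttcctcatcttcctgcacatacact
Igfbp3: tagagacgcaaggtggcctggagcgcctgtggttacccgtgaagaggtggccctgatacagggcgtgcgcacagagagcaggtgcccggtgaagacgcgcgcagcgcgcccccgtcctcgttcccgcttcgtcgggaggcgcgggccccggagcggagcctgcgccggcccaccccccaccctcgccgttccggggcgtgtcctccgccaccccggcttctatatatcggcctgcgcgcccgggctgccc
Igfbp7: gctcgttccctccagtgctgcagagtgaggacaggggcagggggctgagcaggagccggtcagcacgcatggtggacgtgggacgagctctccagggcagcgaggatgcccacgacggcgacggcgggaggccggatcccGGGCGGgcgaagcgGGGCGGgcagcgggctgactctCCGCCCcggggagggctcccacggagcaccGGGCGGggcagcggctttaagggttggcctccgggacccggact
The counts below are over 300 bases, which add the 50 bases after the start. Igf1 had 1 AP-1 match, a motif that 7.81% of 32851 such RefSeq windows held. Igfbp4 had a TATAAA that began 28 bases before the start, and Igfbp6 had the reverse complement, TTTATA, 148 bases before it, where 13.6% of windows held either form. Igfbp7 had 4 GC box matches, and 35.7% of windows had at least 1. Igfbp3 matched none of the 3 motifs and held 37 CpG dinucleotides, where the median window held 7. The other members highest in fibroblasts, Igf1r and Igfbp2, had no TATAAA. Igf1r had 2 GC box matches, and the RefSeq starts of Igfbp2 had 3 GC box matches at one and 1 AP-1 match at the other. No motif was thus shared by all members highest in fibroblasts, or by all those highest in endothelial cells. The GENCODE M21 start of Igfbp6, at position 102144362, lies downstream of the whole window, and that of Igf1, at 87858265, lies upstream of it. The matches describe letters, not bound sites.

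Most members were higher in fibroblasts and in basal cells than in luminal cells. UMIs were summed per mouse and gate and tested with edgeR's quasi-likelihood test, with the mouse as block and Benjamini-Hochberg adjustment over 10322 genes, and a member was called at an adjusted p under 0.05. Igf2 had no UMI and was not tested. Of the 9 tested members, 7 were higher and 1 lower in fibroblasts than in luminal cells, where 25.7% of all tested genes were called higher and 24.3% lower. The median log2 fold change of the 9 members there was 5.43, beside -0.06 for all 10322 genes. In basal cells 7 members were higher and 0 lower, where 4.92% of genes were called higher and 2.15% lower. No member was lower there at an unadjusted edgeR p under 0.05 or with DESeq2 either. Endothelial cells had 5 members higher and 1 lower, against 17.4% and 16.7% of genes. Macrophages had 4 higher and 2 lower, against 22.1% and 21.5% of genes. In mural cells 1 member was higher and 1 lower, against 8.26% and 7.11% of genes, which is near the background. The mural gate had the fewest cells. The median over the 9 members was 1.62 in basal cells, 1.58 in endothelial cells, 1.31 in mural cells and 0.63 in macrophages, beside 0.01, -0.07, -0.15 and -0.05 for all genes. Without tumour 3 the basal count fell from 7 to 4, and the cells of that tumour's basal gate are described with Igfbp2. With library totals in place of TMM scaling, the genes called higher and lower were 984 and 314 in mural cells (853 and 734 with TMM), 2204 and 1120 in endothelial cells (1792 and 1724) and 1770 and 3724 in macrophages (2278 and 2222). No called member changed direction under any scaling.

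Gates were also ranked by the mean level of each member, and gates next to each other in that order were tested in the same edgeR fit. Of 45 such pairs 16 differed at an adjusted p under 0.05. Fibroblasts were the highest gate for 5 members (Igf1, Igf1r, Igfbp2, Igfbp4 and Igfbp6), endothelial cells for Igfbp3 and Igfbp7, basal cells for Igfbp5 and mural cells for Igf2r. For Igf1r and Igf2r the highest gate did not differ from the next (edgeR adjusted p = 0.234 and 0.571). The share of all genes that differed in either direction depended on the pair. Against luminal cells it was 49.9% for fibroblasts, 43.6% for macrophages, 34.1% for endothelial, 15.4% for mural and 7.07% for basal cells. Against macrophages it was 43.8% for fibroblasts, 34.8% for basal, 28.7% for endothelial and 20.5% for mural cells. Against fibroblasts it was 35.7% for basal, 26.8% for endothelial and 14.3% for mural cells. Endothelial cells differed from basal cells in 23.1% and from mural cells in 10.2% of genes, and mural from basal cells in 10.1%.

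**Figure D1:**
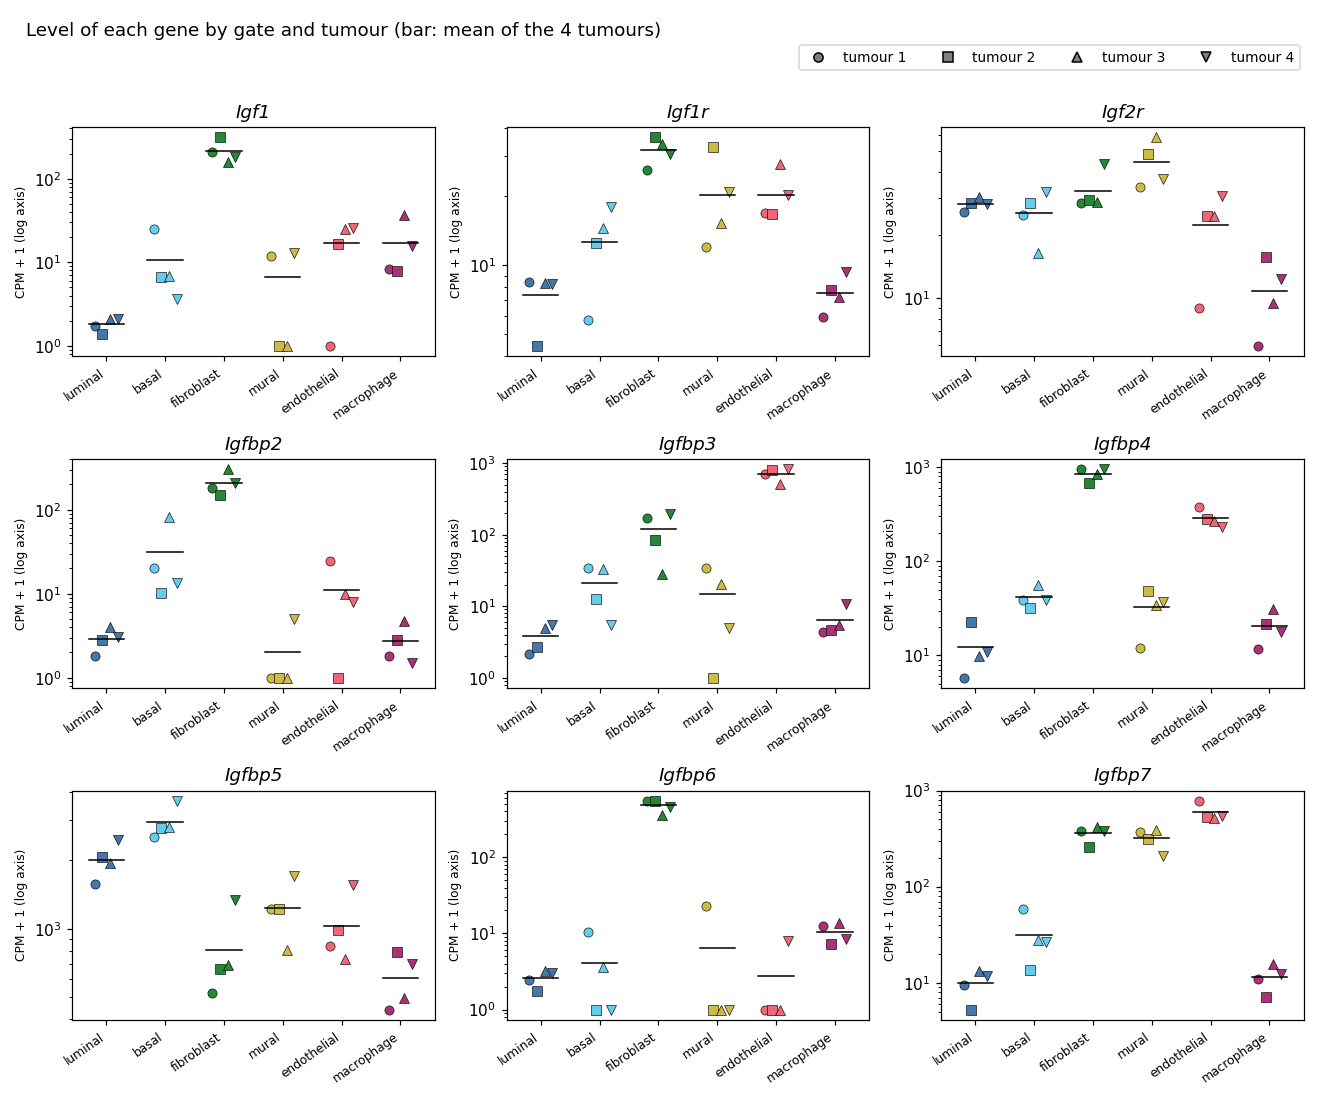
Level of the 9 detected genes in the 6 gates, as CPM plus 1 on a log axis, with 1 symbol per tumour and a bar at the mean of the 4 tumours. Igf1, Igfbp2, Igfbp4 and Igfbp6 sat highest in fibroblasts, Igfbp3 and Igfbp7 in endothelial cells, and Igfbp5 in basal and luminal cells.

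**Figure D2:**
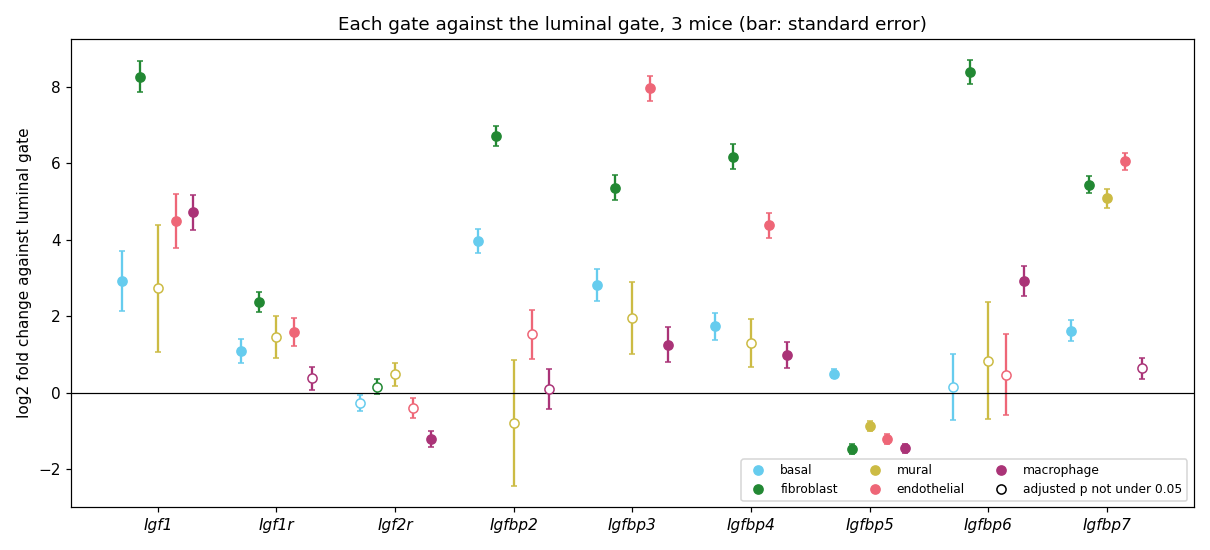
Log2 fold change of each member in 5 gates against the luminal gate, from edgeR over 3 mice, with standard errors as bars. Filled points passed the adjusted p threshold of 0.05, and the values ran from -1.48 for Igfbp5 to 8.38 for Igfbp6, both in fibroblasts.

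Igf1, the ligand that activates IGF1R, was mainly a fibroblast transcript. Its level in fibroblasts was 209, 312, 156 and 183 CPM in tumours 1 to 4. In luminal cells it was 0.724, 0.384, 1.07 and 1.08 CPM. Every fibroblast value stood above every value of the other 5 gates. The mean over mice was 229 ± 75.1 CPM in fibroblasts (SD, n = 3 mice) and 0.729 ± 0.347 CPM in luminal cells (SD, n = 3 mice). The log2 fold change was 8.26 (SE 0.40), with an adjusted p of 8.88e-15 by edgeR and the same direction in 3 of 3 mice. Fibroblasts were 4.14% of the cells and held 64.4% of the 1356 Igf1 UMIs, with 52.6% to 78.9% in single tumours. An Igf1 UMI was found in 32.8% of fibroblasts at a median depth of 2708 UMIs, and in 0.346% of T cells at 1635 UMIs. With every cell thinned to 1500 UMIs and 117 shallower fibroblasts left out, the share was 21.3% of fibroblasts and 0 of 191 T cells.

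Macrophages were the gate with the next highest mean of Igf1. They gave 7.40, 6.78, 35.7 and 14.8 CPM in tumours 1 to 4, so the thoracic tumour 3 was highest. Against luminal cells the log2 fold change was 4.72 (SE 0.46), with an edgeR adjusted p of 5.69e-09 in 3 of 3 mice. Macrophages held 10.8% of all Igf1 UMIs. Beside this, the 5 fibroblast markers read in macrophages stood at 0.448% to 3.32% of their fibroblast level, and Igf1 at 10.0% of its own. Endothelial cells had 0, 15.7, 23.7 and 24.4 CPM, and a log2 fold change of 4.49 (SE 0.70, edgeR adjusted p = 1.50e-05) that 2 of 3 mice shared. Basal cells had 23.9, 5.74, 5.81 and 2.67 CPM from 22 UMIs in all, with a log2 fold change of 2.92 (SE 0.78, edgeR adjusted p = 0.0206) that was not called without tumour 1 (adjusted p = 0.129). Fibroblasts differed from macrophages, the next gate in the order (edgeR adjusted p = 9.19e-09), and no neighbours below that differed from each other.

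Within the macrophage gate, Igf1 was lower in cells with high MHC class II, the antigen-presenting molecules. Cells with 5 or more UMIs of H2-Aa, H2-Ab1 and H2-Eb1 were set against cells with at most 1. MHC class II low cells had 20.8, 39.0 and 52.9 CPM of Igf1 in mice 1 to 3. MHC class II high cells had 2.68, 0.784 and 8.62 CPM. The arms did not overlap, and the log2 fold change was -2.89 (SE 0.34), with an adjusted p of 3.21e-06 by edgeR over 6815 genes. Of the 6 members tested here 1 was lower and 1, Igfbp5 (0.39, SE 0.09), was higher, where 2.07% of genes were called lower and 1.1% higher. In single tumours of mouse 3, MHC class II low cells had 70.2 CPM in the thoracic and 29.6 CPM in the inguinal tumour. The count fell from 2 to 1 without mouse 3, when Igfbp5 was not called (edgeR adjusted p = 0.325). The part of luminal RNA in the Igfbp5 difference was not tested.

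Igf2, the ligand that IGF2R clears, was listed at 0 in all 36162 barcodes. A count of 0 allowed up to 0.0366 CPM in the luminal gate, 0.665 CPM in the fibroblast gate and 4.43 CPM in the mural gate, taking 3 counts over the gate's UMIs. Gm49394, a protein-coding entry on the same strand, shares 3596 exon bases, 62.8% of those of Igf2, and was also listed at 0. How reads over the shared exons were counted was not tested. H19, the imprinted neighbour of Igf2 that makes a long non-coding RNA, had 983 UMIs in 383 cells. Its level was 126 ± 29.8 CPM in fibroblasts, 52.8 ± 35.9 CPM in basal cells and 1.65 ± 1.38 CPM in luminal cells (SD, n = 3 mice). H19 was higher than in luminal cells in fibroblasts (log2 fold change 6.47, SE 0.50, edgeR adjusted p = 7.76e-11) and in basal cells (5.06, SE 0.55, edgeR adjusted p = 5.95e-07).

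Igf1r, the signalling receptor, was read at low levels in every gate. Fibroblasts had 25.2, 35.3, 33.1 and 29.6 CPM in tumours 1 to 4, and luminal cells had 7.42, 3.43, 7.37 and 7.25 CPM. The groups did not overlap, and the log2 fold change was 2.36 (SE 0.26, edgeR adjusted p = 4.36e-08) with 3 of 3 mice. Endothelial cells had 15.9, 15.7, 26.7 and 19.2 CPM, a log2 fold change of 1.58 (SE 0.36, edgeR adjusted p = 0.00135). That call was lost without mouse 3 (adjusted p = 0.208). The mural mean was 20.1 ± 10.7 CPM (SD, n = 3 mice) from 13 UMIs, with an edgeR adjusted p of 0.0729 against luminal cells. The basal mean was 10.4 ± 5.18 CPM, with a log2 fold change of 1.09 (SE 0.32, edgeR adjusted p = 0.0391) that 2 of 3 mice shared. It was not called without tumour 2, 3 or 4 (adjusted p = 0.107, 0.0970 and 0.153). The basal call was lost in 9 of 15 alternatives of processing, over which the log2 fold change ran from 0.82 to 1.29. In macrophages the mean was 6.29 ± 1.19 CPM, and the edgeR adjusted p was 0.339. No neighbours in the order of Igf1r levels differed from each other. Luminal cells were 56.9% of all cells and held 52.1% of the 900 Igf1r UMIs.

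Igf2r, which removes IGF2 and sorts lysosomal enzymes, was the most even member. Its means ran from 42.1 ± 8.01 CPM in mural cells and 29.8 ± 3.28 in fibroblasts through 26.8 ± 1.76 in luminal, 24.5 ± 2.81 in basal and 19.3 ± 9.96 in endothelial cells to 9.80 ± 4.93 CPM in macrophages (SD, n = 3 mice). Macrophages had 4.94, 14.8, 8.46 and 11.3 CPM in tumours 1 to 4, all below the 24.8, 27.5, 29.2 and 27.1 CPM of luminal cells. That difference was -1.21 on the log2 scale (SE 0.21, edgeR adjusted p = 3.01e-05). The other 4 gates did not pass the test against luminal cells, with edgeR adjusted p-values of 0.244 to 0.581. Airn, the antisense RNA of the Igf2r locus, had 973 UMIs and shares no exon base with Igf2r.

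Igfbp2, a secreted binding protein with a cell-binding motif, was highest in fibroblasts. The 4 tumours gave 181, 147, 304 and 208 CPM, all above the 9.19 to 81.3 CPM of basal cells and the 0.815 to 2.97 CPM of luminal cells. The mean was 198 ± 61.6 CPM (SD, n = 3 mice), and the log2 fold change against luminal cells was 6.72 (SE 0.27, edgeR adjusted p = 1.77e-16). Basal cells gave 19.1, 9.19, 81.3 and 12.5 CPM, so tumour 3 stood far above the others. The basal log2 fold change was 3.96 (SE 0.32, edgeR adjusted p = 5.87e-09) in 3 of 3 mice. It was 2.67 without tumour 3 (edgeR adjusted p = 0.000292) and 2.85 without mouse 3 (adjusted p = 0.0476). Basal cells of tumour 3 also had 379 CPM of the fibroblast markers, 5 of 5 detected, where the other tumours had 10.3 to 95.4 CPM, and the part of this in the Igfbp2 level was not tested. Over all tumours the fibroblast markers stood at 0.407% to 8.14% of their fibroblast level in basal cells, and Igfbp2, Igfbp3, Igfbp7, Igfbp4 and Igf1 at 16.9%, 19.6%, 6.69%, 5.03% and 3.03% of theirs. In endothelial cells 13 UMIs gave 23.8, 0, 8.90 and 6.98 CPM, and the edgeR adjusted p against luminal cells was 0.0672. Mural cells held 1 Igfbp2 UMI in all.

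Igfbp3, the main carrier of IGF1 in blood, had the largest log2 fold change of endothelial over luminal cells among the tested members. Endothelial cells had 707, 813, 519 and 826 CPM in tumours 1 to 4, and luminal cells had 1.18 to 4.39 CPM. The mean of 727 ± 78.5 CPM (SD, n = 3 mice) was 7.96 above the luminal level on the log2 scale (SE 0.33, edgeR adjusted p = 8.94e-16). Endothelial cells were 1.74% of all cells and held 44.6% of the 2742 Igfbp3 UMIs. An Igfbp3 UMI was seen in 52.3% of endothelial cells at a median depth of 2231 UMIs, beside 1.73% of T cells. With thinning to 1500 UMIs the shares were 43.5% and 0.524%.

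Fibroblasts held Igfbp3 at 172, 83.4, 26.8 and 192 CPM, below every endothelial value. The fibroblast mean was 115 ± 49.0 CPM (SD, n = 3 mice), a log2 fold change of 5.36 over luminal cells (SE 0.32, edgeR adjusted p = 3.81e-13) and 2.59 under endothelial cells (SE 0.28, edgeR adjusted p = 8.84e-08). Basal cells had 33.4, 11.5, 32.3 and 4.45 CPM, with a log2 fold change of 2.82 (SE 0.42, edgeR adjusted p = 5.38e-05). That call was lost without tumour 3 (adjusted p = 0.0703). In macrophages 42 UMIs gave 4.57 ± 1.88 CPM (SD, n = 3 mice) and a log2 fold change of 1.26 (SE 0.46, edgeR adjusted p = 0.0284). This call was lost in 5 of 15 alternatives of processing, among them without tumour 4 (adjusted p = 0.342) or mouse 3. Macrophages stood at 0.794% of the endothelial Igfbp3 level, and endothelial markers there stood at 0.652% to 1.97% of theirs.

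Igfbp4, whose complex with IGF is cut by the protease PAPP-A, was the most widely detected binding protein of fibroblasts, with a UMI in 76.0% of them and in 2.08% of T cells. Levels were 947, 674, 841 and 954 CPM in fibroblasts and 373, 282, 266 and 229 CPM in endothelial cells. Luminal cells had 4.80, 21.4, 8.79 and 9.86 CPM. The 3 gates did not overlap. Against luminal cells the log2 fold change was 6.17 (SE 0.33, edgeR adjusted p = 4.97e-14) in fibroblasts and 4.38 (SE 0.33, edgeR adjusted p = 7.93e-11) in endothelial cells. Fibroblasts were 1.79 above endothelial cells on the log2 scale (SE 0.30, edgeR adjusted p = 5.03e-05). Basal cells had 38.9 ± 8.27 CPM (SD, n = 3 mice) and a log2 fold change of 1.73 (SE 0.36, edgeR adjusted p = 0.00237), not called without mouse 3 (adjusted p = 0.448). The macrophage value was 18.4 ± 6.96 CPM, with a log2 fold change of 0.99 (SE 0.34, edgeR adjusted p = 0.0219) that 2 of 3 mice shared. This call was lost in 5 of 15 alternatives of processing, among them without tumour 3 (adjusted p = 0.126).

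Igfbp6, a binding protein that prefers IGF2, had the largest share of its UMIs in fibroblasts of all 9 members. Fibroblasts had 548, 546, 358 and 461 CPM in tumours 1 to 4. No value of the other 5 gates passed the 22.0 CPM that 2 UMIs gave in mural cells of tumour 1. The fibroblast mean was 497 ± 85.9 CPM (SD, n = 3 mice), with a log2 fold change of 8.38 over luminal cells (SE 0.31, edgeR adjusted p = 4.95e-17). Fibroblasts held 71.3% of the 2759 Igfbp6 UMIs, and T cells had a UMI in 1.04% of cells where fibroblasts had one in 46.2%. Macrophages came next with 11.5, 6.17, 12.5 and 7.38 CPM, above luminal cells by 2.93 on the log2 scale (SE 0.39, edgeR adjusted p = 9.63e-07). This was 2.21% of the fibroblast level, and fibroblast markers stood at 0.448% to 3.32% of theirs in the same cells. Igfbp2, Igfbp4 and Igfbp7 read in macrophages at 0.825%, 2.47% and 2.99% of their fibroblast level.

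Igfbp7, a relative that binds IGFs weakly and is deposited along vessels, was shared by the 3 stromal gates. Endothelial cells had 779, 528, 515 and 548 CPM in tumours 1 to 4. Fibroblasts had 383, 254, 413 and 375 CPM, and mural cells 373, 310, 392 and 207 CPM. Luminal cells had 8.51, 4.26, 12.3 and 10.8 CPM, below all of these. The log2 fold change over luminal cells was 6.05 (SE 0.23) in endothelial cells, 5.43 (SE 0.22) in fibroblasts and 5.09 (SE 0.25) in mural cells, with edgeR adjusted p-values of 3.12e-16, 2.51e-16 and 6.94e-14. Endothelial cells exceeded fibroblasts by 0.61 on the log2 scale (SE 0.20, edgeR adjusted p = 0.0210), and fibroblasts and mural cells did not pass the test against each other (edgeR adjusted p = 0.362). Basal cells had 32.1 ± 22.8 CPM (SD, n = 3 mice), a log2 fold change of 1.62 (SE 0.28, edgeR adjusted p = 0.000329). The 85 exon bases that Igfbp7 shares with Polr2b lie on the opposite strand and are 7.03% of its exon bases.

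Igfbp5, the binding protein of involution, ran the other way and had its highest levels in the basal and luminal gates. Basal cells had 2538, 2783, 2798 and 3642 CPM in tumours 1 to 4, and luminal cells 1567, 2056, 1943 and 2447 CPM. In each tumour the basal value was the higher. The log2 fold change was 0.50 (SE 0.12, edgeR adjusted p = 0.0105) in 3 of 3 mice. It was not called without tumour 1 or 3 (adjusted p = 0.159 and 0.0518). The call was lost in 7 of 15 alternatives of processing, over which the log2 fold change ran from 0.28 to 0.55. An Igfbp5 UMI was read in 83.8% of luminal cells, and luminal cells held 74.4% of its 227413 UMIs. The 10% of luminal cells with most Igfbp5 held 38.1% to 44.6% of it in a tumour.

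Every non-epithelial gate had less Igfbp5 than luminal cells. The means were 1247 ± 42.3 CPM in mural, 979 ± 134 in endothelial, 710 ± 213 in fibroblast and 603 ± 174 CPM in macrophage cells (SD, n = 3 mice), beside 524 ± 82.9 CPM in T cells. The log2 fold changes were -0.88, -1.20, -1.48 and -1.46, with edgeR adjusted p-values of 2.00e-05, 4.59e-08, 4.56e-10 and 5.03e-10. Macrophages read Igfbp5 at 29.2% of the luminal level and the 5 luminal markers at 24.7% to 32.0% of theirs. T cells read it at 27.0% beside 10.1% to 22.3%, endothelial cells at 51.5% beside 32.8% to 38.2%, mural cells at 61.7% beside 41.2% to 54.9%, and fibroblasts at 41.6% beside 14.2% to 21.5%. The Igfbp5 share lay within the range of the marker shares in macrophages and above it in the other 4, and whether free RNA or cells with luminal RNA gave these shares was not tested.

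**Figure D3:**
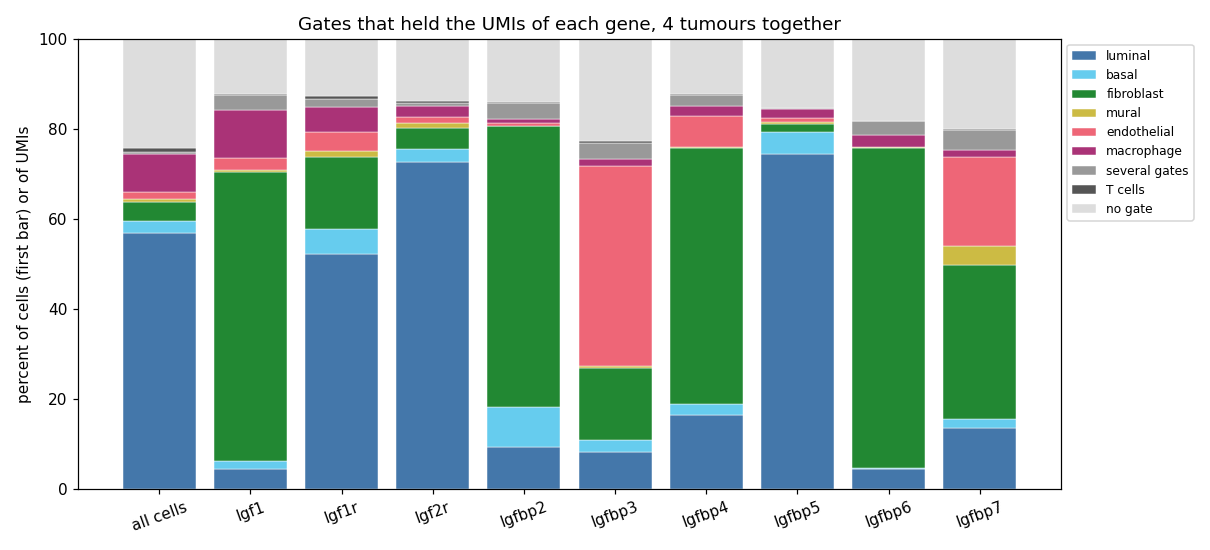
Share of the UMIs of each gene by gate, all 4 tumours together, beside the share of cells in the first bar, in percent. Fibroblasts, 4.14% of cells, held 71.3% of Igfbp6 and 64.4% of Igf1, endothelial cells, 1.74% of cells, held 44.6% of Igfbp3, and luminal cells held 74.4% of Igfbp5.

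Fibroblasts were not uniform in their binding proteins. Cells with Clec3b or Dpt, genes of adventitial fibroblasts, were set against cells with Postn or Lrrc15, genes of matrix-producing tumour fibroblasts. The 89 Clec3b or Dpt cells held 1 UMI of Igfbp2 and 1 of Igfbp3. Postn or Lrrc15 cells had 276, 368 and 300.3 CPM of Igfbp2 and 260, 169 and 117 CPM of Igfbp3 in mice 1 to 3. Igfbp6 went the other way, with 1324, 694 and 1530 CPM in Clec3b or Dpt cells and 193, 230 and 212 CPM in Postn or Lrrc15 cells. The arms did not overlap for any of these 3 genes.

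The test of this split used mice 2 and 3, since mouse 1 had 14 Clec3b or Dpt cells and 20 were required. Of 7 members tested, 2 were lower and 1 higher in Clec3b or Dpt cells, where 4.23% of 2692 genes were called lower and 4.57% higher. They were Igfbp2 (edgeR adjusted p = 0.000994), Igfbp3 (edgeR adjusted p = 0.00561) and Igfbp6 (log2 fold change 2.28, SE 0.34, edgeR adjusted p = 0.00387). With sums of 5 cells or more, a limit chosen after seeing the data, all 3 mice entered. Igfbp7 was then also called lower, by 1.32 on the log2 scale (SE 0.31, edgeR adjusted p = 0.00486), where 5.89% of genes were lower and 5.68% higher. Igf1 did not pass the test in either fit (adjusted p = 0.729 and 0.755). It had 171, 87.6 and 223 CPM in Clec3b or Dpt cells and 142, 353 and 133 CPM in Postn or Lrrc15 cells. Igfbp4 had 982, 205 and 831 CPM against 950, 855 and 892 CPM (edgeR adjusted p = 0.268).

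Endothelial cells with tip genes (Apln, Esm1 and Angpt2, markers of sprouting vessels) differed in Igfbp3 and Igfbp5. They numbered 5, 19 and 35 in mice 1 to 3, so that no test was possible at 20 cells a sum, and the test at 5 cells was chosen after seeing the data. Igfbp3 was at 525, 2238 and 1708 CPM in cells with tip genes and at 637, 543 and 535 CPM in the others. Mice 2 and 3 were higher and mouse 1, with 4 UMIs in 5 cells, was not. The log2 fold change was 1.48 (SE 0.23, edgeR adjusted p = 0.000148). Igfbp5 was at 131, 136 and 384 CPM with tip genes and at 1023, 1168 and 1277 CPM without, a log2 fold change of -2.31 (SE 0.26, edgeR adjusted p = 1.75e-06). T cells had 524 ± 82.9 CPM of Igfbp5 (SD, n = 3 mice), and 20.5% of endothelial cells passed the luminal threshold. The part of luminal RNA in the Igfbp5 difference was not tested. Of the 4 members tested 1 was higher and 1 lower, where 4.37% and 5.89% of 1443 genes were.

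Luminal cells in cycle had less Igfbp5. Cells with 2 or more UMIs of Mki67 and Top2a were set against those with 0. Cycling cells had 578, 918 and 607 CPM of Igfbp5 in mice 1 to 3, and the others had 1669, 2248 and 2459 CPM, with no overlap. The log2 fold change was -1.63 (SE 0.08, edgeR adjusted p = 4.49e-21), and of 7 members tested 1 was lower and 0 higher, where 15.9% and 16.2% of 12911 genes were. None was higher at an unadjusted edgeR p under 0.05 or with DESeq2. Cycling cells were deeper, with median depths of 4898 to 6746 UMIs against 2544.5 to 3292. Among cells of 4000 to 10000 UMIs only, a limit chosen after seeing the data, Igfbp5 was at 578, 771 and 597 CPM against 1714, 2218 and 2319 CPM, a log2 fold change of -1.73 (edgeR adjusted p = 4.67e-16). The number of members called was 2, 2 and 3 without tumours 1, 2 and 3 and 2 without mouse 3. Igfbp4, not called with all tumours (0.44, edgeR adjusted p = 0.125), was called higher without tumour 1 (0.53, adjusted p = 0.0183), tumour 3 (0.61, adjusted p = 0.0176) or mouse 3 (0.88, adjusted p = 0.000336). Without tumour 2 Igfbp4 was called lower instead (-0.94, edgeR adjusted p = 0.0286). Igfbp7 was called lower without tumour 3 (-0.93, edgeR adjusted p = 0.0278). Igf2r had 36.8, 32.4 and 28.2 CPM in cycling and 23.4, 26.4 and 27.6 CPM in the other luminal cells (edgeR adjusted p = 0.256).

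**Figure D4:**
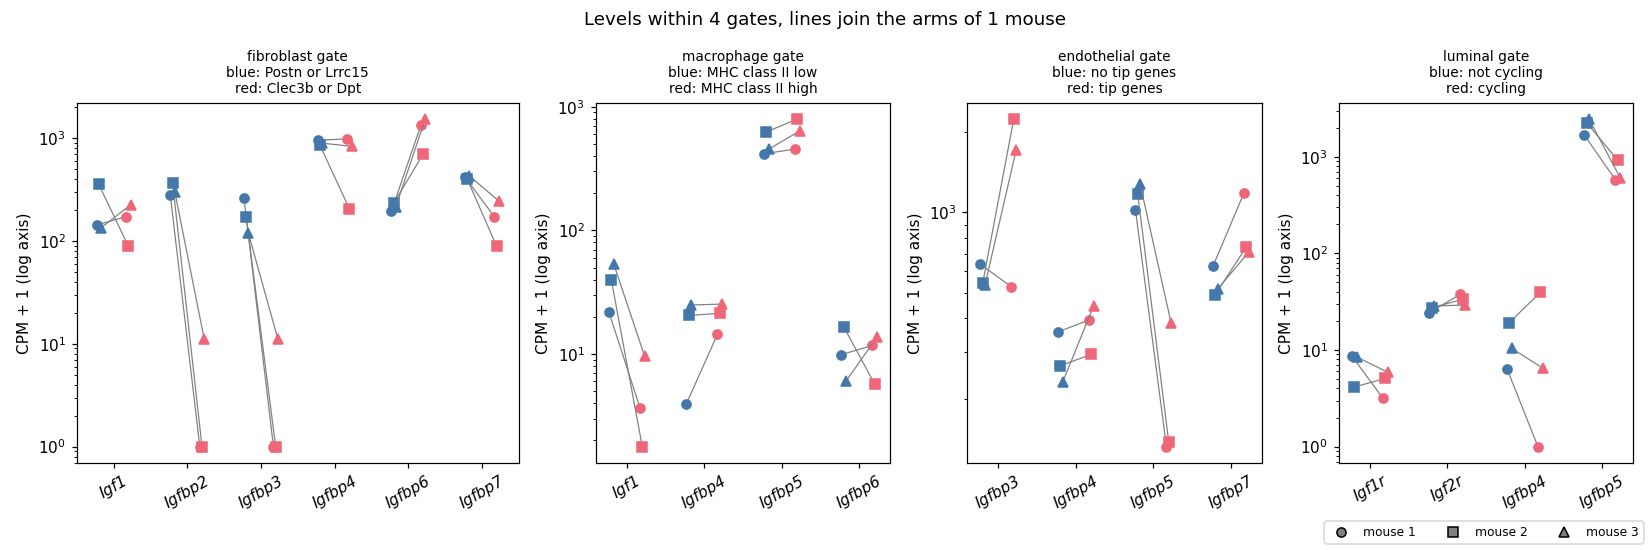
Levels within the fibroblast, macrophage, endothelial and luminal gates, as CPM plus 1 on a log axis, with 1 symbol per mouse and lines that join the 2 arms of a mouse. Igfbp2 and Igfbp3 dropped to 0 or 1 UMI a mouse in Clec3b or Dpt fibroblasts, Igf1 was lower in MHC class II high macrophages, and Igfbp5 was lower in cycling luminal cells.

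The thoracic and the inguinal tumour of mouse 3 allowed a comparison within 1 animal, with 1 tumour each and so no test. Ratios carry exact 95% conditional binomial intervals, which cover counting error only. In fibroblasts Igfbp3 was at 26.8 CPM in the thoracic tumour (55 UMIs) and at 192 CPM in the inguinal tumour (252 UMIs), 7.15 times as high (5.33 to 9.76). Postn or Lrrc15 fibroblasts alone gave 33.3 and 230 CPM. The fibroblast levels of Igf1, Igfbp4 and Igfbp7 had thoracic over inguinal ratios of 0.850 (0.717 to 1.01), 0.882 (0.820 to 0.949) and 1.10 (0.986 to 1.23), and Igfbp2 had 1.46 (1.26 to 1.69). Endothelial Igfbp3 was also lower in the thoracic tumour, at 519 against 826 CPM (ratio 0.629, 0.546 to 0.723). In basal cells the order of Igfbp3 was opposite, at 32.3 against 4.45 CPM (ratio 7.25, 2.91 to 23.3). Basal Igfbp2 was higher in the thoracic tumour, as in fibroblasts, at 81.3 against 12.5 CPM (ratio 6.52, 3.75 to 12.3). The fibroblast markers in those basal cells stood at 379 against 50.7 CPM. Macrophage Igf1 was at 35.7 against 14.8 CPM (ratio 2.42, 1.59 to 3.78). Igfbp5 was lower in the thoracic tumour in all 6 gates, with ratios of 0.471 to 0.794. The gland, the tumour and the library cannot be told apart here.

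**Figure D5:**
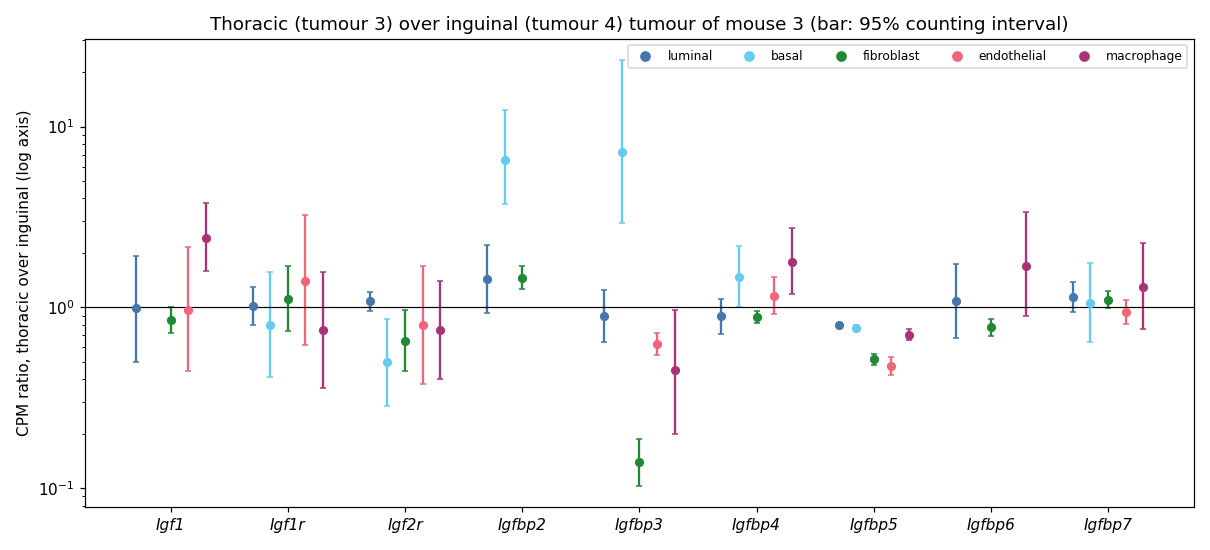
Ratio of the CPM of each gene in the thoracic over the inguinal tumour of mouse 3, on a log axis, with 95% counting intervals, for 5 gates and pairs with at least 20 UMIs. Igfbp3 stood at 0.140 in fibroblasts and 7.25 in basal cells, and Igfbp5 lay below 1 in each gate.

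Other genes of the pathway were read from a list of 38, all in the gene table, of which 29 passed the filter on low counts. In fibroblasts 13 were higher and 4 lower than in luminal cells, where 25.7% and 24.3% of all genes were. In macrophages 3 were higher and 11 lower, against 22.1% and 21.5% of genes. Endothelial cells had 7 and 6, against 17.4% and 16.7%, and mural cells 2 and 2, against 8.26% and 7.11%, which is near the background in both gates. Basal cells had 2 and 0, against 4.92% and 2.15%. The list's median log2 fold change was 0.45 in fibroblasts and -0.28 in macrophages, beside -0.06 and -0.05 for all genes. Htra1, a secreted protease that cuts binding proteins, was called higher than in luminal cells in all 5 gates. It had 66.2 ± 16.0 CPM in fibroblasts, 35.8 ± 3.55 in mural cells and 0.301 ± 0.198 CPM in luminal cells (SD, n = 3 mice). The basal level was 5.58 ± 6.03 CPM (SD, n = 3 mice), and 2 of 3 mice shared the direction there. The log2 fold changes of Htra1 were 7.55 (SE 0.36) in fibroblasts and 6.39 (SE 0.65) in mural cells, with edgeR adjusted p-values of 4.32e-15 and 4.66e-08. The stanniocalcins, inhibitors of PAPP-A, parted by gate. Stc2 was higher in fibroblasts (61.4 against 8.29 CPM, log2 fold change 3.14, edgeR adjusted p = 4.63e-10), and Stc1 in endothelial cells (67.6 against 3.07 CPM, log2 fold change 4.30, edgeR adjusted p = 1.42e-10).

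Downstream of the receptor, Grb10, an adaptor that dampens it, was higher in endothelial cells (log2 fold change 3.17, edgeR adjusted p = 4.77e-08) and fibroblasts (2.74, edgeR adjusted p = 4.48e-08) and lower in macrophages (-1.89, edgeR adjusted p = 0.00811). Irs1, a docking protein of IGF1R, was lower in endothelial cells (0.535 against 6.12 CPM, log2 fold change -2.64, edgeR adjusted p = 0.0112) and macrophages (-1.23, edgeR adjusted p = 0.0147) and higher in fibroblasts (1.21, edgeR adjusted p = 0.00309). Pik3r1, the regulatory subunit of PI3K, was lower in fibroblasts (-1.37), macrophages (-1.01) and endothelial cells (-0.86), with edgeR adjusted p-values of 3.64e-07, 1.17e-05 and 0.000660. Grb2, an adaptor to RAS, was higher in macrophages (1.64, edgeR adjusted p = 1.30e-09). Rheb, the activator of mTOR, was higher in fibroblasts (0.90), endothelial cells (0.68) and macrophages (0.35), with edgeR adjusted p-values of 2.98e-06, 0.000582 and 0.0269. Socs2, a brake on growth hormone signalling, was lower in macrophages (-1.45, edgeR adjusted p = 5.18e-05) and in mural cells (-1.33, edgeR adjusted p = 0.0454) and higher in fibroblasts (0.57, edgeR adjusted p = 0.0459). Igfals, which joins IGF and IGFBP3 in the blood complex, was lower in fibroblasts (-3.03), mural cells (-2.31), endothelial cells (-1.67) and macrophages (-1.23), with edgeR adjusted p-values of 1.99e-06, 0.0371, 0.00558 and 0.000766. Foxo1, a transcription factor that AKT restrains, was lower in fibroblasts (-0.74) and macrophages (-1.17) and higher in endothelial cells (0.64), with edgeR adjusted p-values of 0.00889, 6.51e-05 and 0.0291. Stat5a, which growth hormone and prolactin activate, was lower in endothelial cells (-1.66), macrophages (-0.83) and fibroblasts (-0.71), with edgeR adjusted p-values of 0.00310, 0.00882 and 0.0366. Stc2 was lower in macrophages (-1.54, edgeR adjusted p = 0.00673).

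Genes most alike in pattern were ranked by Pearson's r of log2(CPM + 1) over 24 sums, 6 gates by 4 tumours, which share libraries, depth and the gates' make-up. Igfbp7 was most like the collagen IV genes Col4a1 (r = 0.98) and Col4a2 (r = 0.97), with Tshz2 between them. Igfbp6 was most like Svep1 (r = 0.93), Lum and Mfap4. For Igfbp4 these were Dkk2 (r = 0.92), Adamtsl1 and Sh3gl1, for Igfbp2 Fbln7 (r = 0.89), Pcdh7 and Kif26b, and for Igf1 Vat1 (r = 0.86), Gask1b and Dram1. Igfbp3 was most like Ptn (r = 0.93), Hif1a and Vamp5. Igfbp5 was most like Cp (r = 0.93), Pik3r1 and 1110008P14Rik. Among the receptors, Igf1r was most like Tuba1a (r = 0.92), Dbn1 and Fkbp9, and Igf2r most like Osmr (r = 0.86), Lgalsl and Ankrd17.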

How the data were processed

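The authors deposited 4 matrices of unnormalised UMI counts, genes by barcodes. FastQC, Cell Ranger 2.2.0 and the mm10 (GRCm38) build are named per the submitters' processing notes. Values were whole numbers, and 36138 of 36162 barcodes had at least 300 genes and under 15% mitochondrial UMIs. No doublet caller was run, and cells past several non-luminal gates were set aside. The members and gene lists were chosen with earlier results of these data known. UMIs were summed per mouse and gate, because the animal is the replicate and gives every gate. Sums of fewer than 20 cells were dropped. edgeR 4.0.16 (TMM, filterByExpr, quasi-likelihood F test, mouse as block from the animal labels) tested 10322 genes across all 6 gates in 1 fit. Levels are CPM of the gate's total UMIs, given for all members, and for other pathway genes the 3 highest and 3 lowest called per gate, with the other gates where these genes were called added after their values were seen. One gene that this rule names is not reported here. DESeq2 1.42.0, other scalings, filters, gate rules and leave-one-out fits were alternatives. On sums simulated for fibroblasts against luminal cells over 10322 genes, 40 of 100 genes changed 2-fold and 94 of 100 changed 4-fold were recovered, and 5.63% of calls were false. The simulated gates shared a pooled profile with a fixed spread and no mouse effect, and the changed genes were all raised. These rates therefore need not hold in the data, where 49.9% of genes differed in this comparison. Gene positions and overlaps came from GENCODE M21 (GRCm38), promoters from RefSeq (GRCm38.p6), and all 10 members matched in both. Intervals and floors cover counting error only.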

Additional observations from a re-analysis of the deposited data

Results flagged for a closer look

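Of 54 combinations of a member and a gate, 8 had 1 tumour set apart, with a gap to the nearest other tumour that passed Dixon's 95% limit for 4 values. Chance flags about 1 in 20 groups of independent values, a rate that does not carry over here, since tumours 3 and 4 share a mouse and any single tumour above others at 0 passes the limit.

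In basal cells Igfbp2 stood at 81.3 CPM in tumour 3 (126 UMIs), where the other tumours had 9.19 to 19.1 CPM. The 10% of these basal cells with most Igfbp2 held 94.4% of it, with up to 14 UMIs in a cell. Basal Igf1 stood at 23.9 CPM in tumour 1, from 5 UMIs, and at 2.67 to 5.81 CPM in the others. Luminal Igf1r was low in tumour 2, at 3.43 CPM (116 UMIs), against 7.25 to 7.42 CPM elsewhere. Fibroblast Igf2r was high in tumour 4, at 42.6 CPM (56 UMIs), against 27.5 to 28.3 CPM. Endothelial Igfbp7 was high in tumour 1, at 779 CPM (98 UMIs), against 515 to 548 CPM.

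The other 3 came from groups where the remaining tumours were at 0. Mural Igfbp2 was 3.99 CPM in tumour 4 from 1 UMI, mural Igfbp6 was 22.0 CPM in tumour 1 from 2 UMIs, and endothelial Igfbp6 was 6.98 CPM in tumour 4 from 4 UMIs.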

How the results depend on the processing

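The 35 called member tests gave 494 values under alternatives, of which 459 stayed called in the same direction, 35 lost the call and 0 reversed. All 8 fibroblast calls held throughout. DESeq2 called 5 members in mural cells (edgeR 2) and 1 in the macrophage split (2). Doubled gate thresholds, or leaving out mouse 3, left 4 of 7 basal calls. Without mouse 3 the macrophage split had 1 call and the luminal split 2 (main 1). Without the filter on low counts the fibroblast split had 5 (3). Without the replicate block, that is without pairing gates by mouse, 10 of 45 neighbouring gates differed (16 with it), the macrophage split had 1 call, and the gates had 5 basal, 8 fibroblast, 2 mural, 6 endothelial and 4 macrophage calls. Leaving out 1 tumour at a time gave 4 to 6 basal, 8 fibroblast, 2 to 3 mural, 6 to 7 endothelial and 5 to 6 macrophage calls, 12 to 17 neighbours, and 2 to 3, 2 and 1 to 3 calls in the fibroblast, macrophage and luminal splits.

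The 23 values that changed sign belonged to members not called, and the cause was not tested. In log2 fold change, and with the range over leaving out 1 tumour, Igfbp2 in macrophages was -0.17 with library totals, -0.011 without the filter on low counts, -0.066 with the tumour as unit and -0.49 (without tumour 3) to 0.27. Basal Igfbp6 was -0.033 without the filter and -0.55 (without tumour 3; -0.43 without tumour 1) to 0.74. Fibroblast Igf2r was -0.0072 without the filter, -0.050 at doubled thresholds and -0.031 (without tumour 4) to 0.33. Mural Igfbp6 ran from -6.45 (without tumour 1) to 1.57, and mural Igfbp2 from -6.30 to 0.11 (without tumour 3). Endothelial Igfbp6 was -5.04 without mouse 3, -5.65 at doubled thresholds and -5.51 (without tumour 4) to 1.29. In the macrophage split Igf2r ran from -0.16 (without tumour 1) to 0.55. In the luminal split Igfbp3 was -0.018 without the filter, -0.31 with DESeq2 and -0.59 (without tumour 4) to 0.34. Igfbp4 there was -0.57 with DESeq2 and -0.94 (without tumour 2, edgeR adjusted p = 0.0286) to 0.61. Igfbp2 there ran from -0.37 (without tumour 2) to 1.16, and Igf2r was -0.18 in cells of 4000 to 10000 UMIs.

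The scaling moved the median of all genes in mural cells from -0.15 (TMM) to -0.01 (RLE size factors) and in macrophages from -0.05 to -0.30 (library totals). RLE called 936 genes higher and 405 lower in mural cells. The mural gate, with 40 to 85 cells a tumour, and Igf1r, with 900 UMIs in all, had the least depth.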
